A study of Mus musculus with 66 samples.

Results

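The GFP-H3.1 line is a derivative of C2C12 cells, a mouse myoblast line, that carries histone H3.1 with a GFP tag at its N-terminus. It was represented by 2 mRNA-Seq libraries, 1 of growing and 1 of differentiated cells, among 20 mRNA-Seq libraries and 66 samples in the series. Both were set beside the libraries of the other 8 GFP-H3 lines in the same state, which carry GFP-H3.2, GFP-H3t, GFP-H3.3, GFP-H3mm7, GFP-H3mm11, GFP-H3mm12, GFP-H3mm13 or GFP-H3mm16. A gene was counted as outside the range when its log2(FPKM + 1) in the H3.1 line was above the highest or below the lowest of the other 8 lines. FPKM is a fragment count scaled by transcript length and by the number of mapped fragments of the library. Of 22489 genes in the table, 10931 had a mean of at least 1 FPKM over the 18 GFP-H3 libraries and were used. Of these, 16 passed only through the H3.1 line, with a mean below 1 FPKM over the other libraries.

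H3.1 is the replication-coupled form of histone H3. It is deposited behind replication forks by the chaperone CAF-1, whereas H3.3 is made throughout the cell cycle and is deposited at active genes and elsewhere without DNA synthesis. C2C12 myoblasts proliferate in rich serum. When serum is withdrawn they leave the cell cycle, express Myod1 targets such as Myog, fuse into myotubes and build sarcomeres.

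The series studied newly found mouse H3 variants, and the GFP-H3 lines were made to express each variant in the same cell background. All 9 lines came from Tet-On C2C12 cells with a doxycycline-inducible GFP-H3 transgene, were selected with doxycycline and G418, and were sorted for GFP, and the labels do not say how many clones a line holds. Growing cells were kept in DMEM with 20% fetal bovine serum, and differentiated cells were collected 48 h after a change to 2% horse serum. WT is C2C12 without a transgene and was left out of the range. Every line had 1 library per state, so that GFP-H3.1 and any other property of this cell line cannot be told apart, and p-values measure the spread among lines and not among cultures. Fewer cells of a kind and less RNA per cell also cannot be told apart in such bulk libraries. Read numbers are unknown for FPKM values, so no counting interval was given.

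In growing H3.1 cells most of the muscle markers checked lay below the other lines. Des, the muscle intermediate filament, was at 219 FPKM (other lines 165 to 497), whereas Myod1 was at 1.61 (11.7 to 110.1) and Myog at 0.106 (1.19 to 23.1), below every other line, and Actc1, Tnnc2, Mylpf and Myh3 also lay below. After differentiation Mylpf and Tnnc2 were again below the other lines, while Ckm, the muscle creatine kinase, was at 144 FPKM (94.9 to 607), Myh3, the embryonic myosin heavy chain, at 95.6 (54.9 to 712) and Myog at 333 (329 to 1151). Among markers of other cell types, 6 adipocyte, 4 osteoblast and cartilage, 7 smooth muscle, 6 fibroblast and tendon and 2 endothelial and blood genes passed the filter, and their mean levels in the H3.1 line are given with the gene groups. The symbols of 4 H3.1-coding and 8 H3.2-coding replication-dependent genes and of the 2 H3.3 genes were looked up, and the table used holds none of them. Replication-dependent genes of other histones were not looked up, and the transgene was not analysed here. H3.1 had 15053 genes above 0 FPKM in growth and 15356 after differentiation, within the 14540 to 16865 of the other lines.

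In growing cells 1433 genes of the H3.1 line lay above the other 8 lines, which is 13.1% of the genes tested, and 1243 lay below them, which is 11.4%. After differentiation 1823 genes (16.7%) lay above and 1447 (13.2%) below. On the same side in both states there were 611 genes above (5.59%) and 404 below (3.7%). In growth alone 812 genes (7.43%) lay above and 804 (7.36%) below, and in differentiated cells alone 1177 (10.8%) lay above and 1033 (9.45%) below. A further 45 genes (0.412%) were outside on opposite sides in the 2 states, and 6045 genes were inside in both. Most distances were small: the median gap to the nearest other line was 0.09 on the log2 scale in growth and 0.17 in differentiated cells, and 105 and 400 genes were outside by at least 0.5. At the edge of the rule, 889 genes in growth and 576 in differentiated cells were outside by under 0.05, and 1112 and 681 were inside by under 0.05.

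Being outside the range was not peculiar to this line. The same count for each line against its 8 others ranged from 749 to 5813 in growth, where H3.1 with 2676 ranked 4 of 9 (exact one-sided permutation over lines, p = 0.444). In differentiated cells it ranged from 971 to 4385, and H3.1 with 3270 ranked 2 (p = 0.222, exact). For the same side in both states it ranged from 104 to 1936, and H3.1 with 1015 ranked 3 (p = 0.333, exact). The smallest p that 9 lines allow is 0.111. Without the H3.3 line, 1541 genes were outside on the same side in both states. For genes outside by at least 0.5, H3.1 ranked 3 in growth and 2 in differentiated cells.

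**Figure D1:**
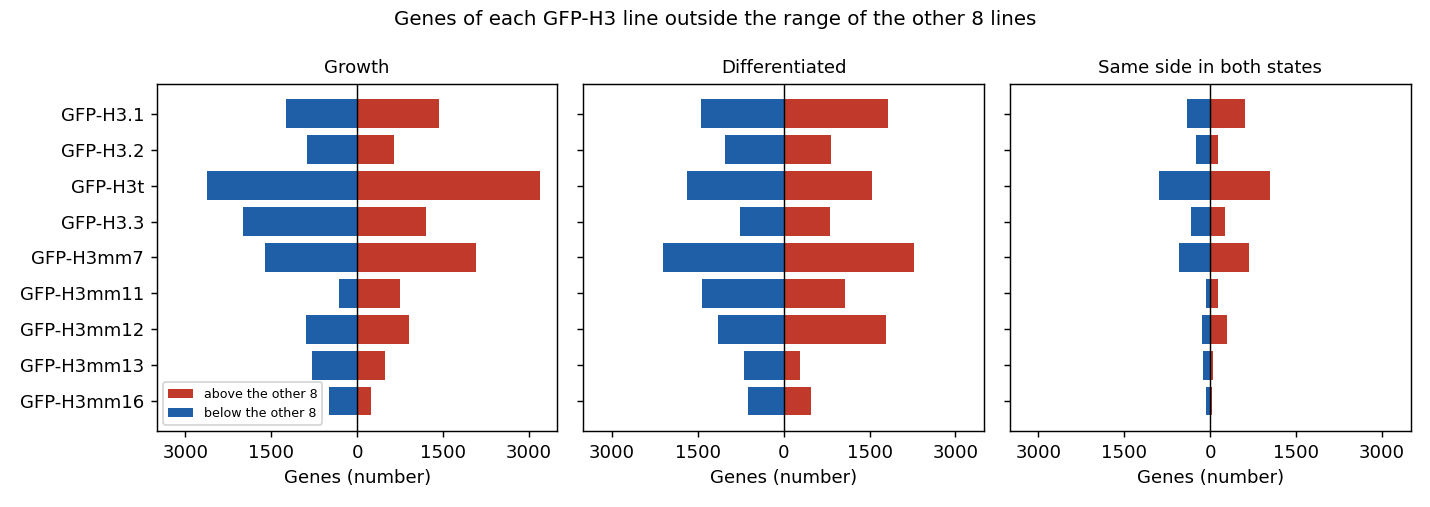
Number of genes above (red, to the right) and below (blue, to the left) the range of the other 8 lines, for each GFP-H3 line in growth, after differentiation and on the same side in both states. The H3.1 line has 1433 and 1243 genes in growth and 1823 and 1447 after differentiation, and other lines, such as H3t and H3mm7, have more.

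limma, a moderated linear model fitted across all genes, was used to ask whether the H3.1 value lay beyond the spread of the other 8 lines (threshold: Benjamini-Hochberg adjusted p under 0.05, and 1 or more in size in log2(FPKM + 1)). It called 5 genes in growth (0.0457% of genes tested), all lower in H3.1: Crabp2, Tlx2, Cd82, Fzd6 and Racgap1. It called 1 gene in differentiated cells (0.00915%), Nefl, which was higher. On the mean of both states it called 3 (0.0274%), Crabp2, Fzd6 and Racgap1, all lower. On the change with differentiation it called 2 (0.0183%), Fzd6 and Racgap1. Genes with an unadjusted p below 0.05 numbered 690, 1002, 1022 and 487 in these fits. Without the H3.2 line the growth count was 9 and without the H3mm7 line 8. In differentiated cells the count was 0 without the H3mm12 or the H3mm16 line and 2 without the H3.2, the H3mm7 or the H3mm13 line. On the mean of both states it was 6 without the H3t or the H3mm7 line, and on the change it was 4 without the H3t line. For all other genes named here, the values are a description and did not pass the test.

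Of the called genes, Cd82, Fzd6 and Racgap1 were listed at exactly 0 FPKM in growing H3.1 cells. Cd82, a tetraspanin, was at 32.2 to 98.8 FPKM in the other growing lines, and after differentiation it was listed at 0 in H3.1 and in H3mm7. Fzd6, a Wnt receptor, was at 17.4 to 39.6. Racgap1, a GTPase-activating protein of the central spindle that dividing cells need for cytokinesis, was at 134 to 163. In this state 17 genes with a median above 20 FPKM among the libraries not at 0 were listed at 0 in some GFP-H3 library, 6 of them in H3.1 and 3 of these in H3.1 alone. An exact 0 for a gene at such a level can be a failed estimate, so the genes are only said to be listed at 0. The calls that do not rest on such a value were Crabp2 and Tlx2 in growth, Nefl in differentiated cells and Crabp2 on the mean of both states.

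**Figure D2:**
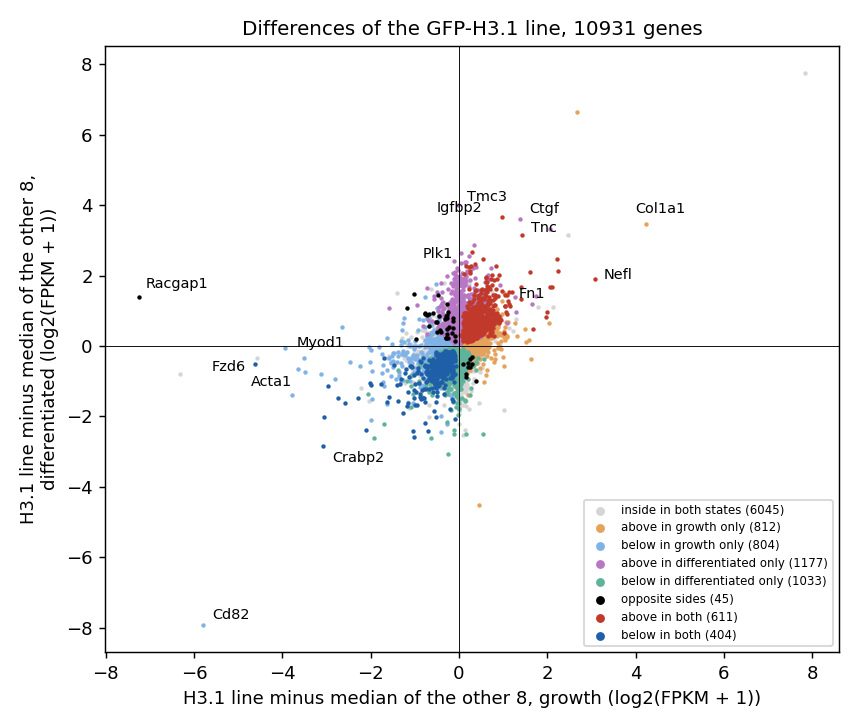
Difference of the H3.1 line from the median of the other 8 lines in growth (horizontal) and after differentiation (vertical), on the log2(FPKM + 1) scale, with 1 point per gene coloured by class. Crabp2 stands out at the lower left, Nefl and Col1a1 at the right, Ctgf, Igfbp2 and Tmc3 at the top, and Racgap1, Fzd6 and Cd82, which are listed at 0 in growing H3.1 cells, at the far left. Unlabelled points beyond these have a 0 in some library.

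Of the 611 genes above the other lines in both states, 10 were on the list of the extracellular matrix, the network of collagens and glycoproteins that myoblasts secrete and adhere to. Of 39 matrix genes tested, 11 lay above the range in growth (28.2%, against 13.1% of all genes), 23 in differentiated cells (59%, against 16.7%) and 10 in both states (25.6%, against 5.59%). Their median difference from the other lines was 0.17 in growth and 1.01 in differentiated cells, against -0.01 and 0.00 over all genes tested. None of them was called by limma. On the other side, 6 lay below in growth (15.4%, against 11.4% of all genes) and 2 in differentiated cells (5.13%, against 13.2%). Those 2, Col6a2 and Lama2, lay below in both states (5.13%, against 3.7%). The list's mean log2(FPKM + 1) in growing H3.1 cells was 4.86, inside the 4.53 to 5.18 of the other lines. In differentiated H3.1 cells it was 5.85, above their 4.42 to 5.37.

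Fn1, fibronectin, was at 993 FPKM in growing H3.1 cells, and the other lines had 353 (lowest), 450.3 (median) and 505 (highest). After differentiation it was at 2139, and the others had 369, 934 and 1312. H3.1 was apart from every other line in both states, and the fitted difference was 1.18 (SE 0.20, adjusted p = 0.104) in growth and 1.37 (SE 0.56, adjusted p = 0.518) after differentiation by limma. Postn, periostin, a secreted matrix protein, was at 76.9 FPKM in growth (8.97, 15.8 and 46.9) and at 255 after differentiation (16.9, 45.6 and 76.5). Tnc, tenascin-C, which is typical of matrix under remodelling, was at 90.1 in growth (20.5, 33.2 and 73.6) and at 35.6 after differentiation (1.83, 3.16 and 8.10). Tnc was lower after differentiation than in growth in every line, and H3.1 was above the others in both states.

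Col8a1 and Fbln2 followed the same order. Col8a1, a network-forming collagen, was at 22.2 FPKM in growth (12.03, 14.8 and 18.1) and 15.8 after differentiation (0.531, 2.03 and 4.90). Fbln2, fibulin-2, was at 146 (40.1, 63.8 and 103) and 111 (22.5, 37.7 and 48.4). Thbs2, Col6a3, Col5a2, Lamb1 and Loxl1 also lay above in both states. Mmp14, Timp1 and Bmp1, which act on the matrix, also lay above in both states. Mmp14, a membrane-bound metalloproteinase, was at 191 FPKM after differentiation (45.8, 71.3 and 90.5), and Timp1, a metalloproteinase inhibitor, at 335 (46.1, 101 and 188). Bmp1, which trims procollagens and is counted with the TGF-beta and BMP system, was at 89.5 (14.9, 32.4 and 43.1). Of 15 matrix proteases and inhibitors, 2 lay above and 3 below in growth (13.3% and 20%, against 13.1% and 11.4% of all genes). After differentiation 7 lay above and 1 below (46.7% and 6.67%, against 16.7% and 13.2%). In both states 2 lay above and 1 below (13.3% and 6.67%, against 5.59% and 3.7%).

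The IGF-binding protein Igfbp2 had one of the widest gaps. It was at 649 FPKM in growing H3.1 cells (184, 342 and 497) and at 836 in differentiated cells (26.2, 65.2 and 101). In all other lines it was lower after differentiation than in growth, and in H3.1 it was not. The fitted difference after differentiation was 3.83 (SE 0.67), with an adjusted p of 0.293. Its change with differentiation differed from the other lines by 2.85 (SE 0.66, adjusted p = 0.962, limma).

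Nefl, the neurofilament light chain, had the widest gap among the genes above in both states. It was at 33.1 FPKM in growth (1.22, 3.06 and 13.9) and at 2.76 after differentiation, where the other lines had 0, 0.00752 and 0.108. In growth H3t at 13.9 and H3.2 at 13.1 came next, and the H3.3-type lines had 1.22 to 3.52. The difference in differentiated cells was 1.88 (SE 0.18) and passed the test (adjusted p = 0.00994), although the level was low. Stmn4, a stathmin that destabilises microtubules, was at 11.9 (0.615, 1.74 and 6.65) and 4.83 (0, 0.334 and 1.45). Brsk1, a kinase of neuronal polarity, was at 4.28 (1.06, 1.42 and 1.99) and 4.94 (0.551, 1.06 and 1.17), with an adjusted p of 0.0823 for the mean of both states. Both were apart from all other lines without passing the threshold.

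Mcam, a cell adhesion molecule of the immunoglobulin family, was at 25.3 FPKM in growth (4.37, 5.31 and 12.3) and 3.58 after differentiation (0.201, 0.445 and 1.08). Glipr1 was at 128 (13.02, 41.7 and 67.1) and 63.2 (6.32, 13.8 and 28.0), and Wtip, a LIM-domain protein, at 8.92 (2.04, 2.73 and 4.54) and 10.3 (1.79, 3.51 and 5.20). Magea8, a gene of the melanoma antigen family on chromosome X, was at 10.4 (0.170, 1.66 and 3.58) and 7.36 (0.0637, 1.61 and 3.31). Dennd2a, a Rab exchange factor, was at 9.01 (4.07, 4.41 and 5.38) and 8.37 (1.78, 2.53 and 4.48). These 5 genes completed the 10 with the widest gaps above the range in both states, and the line next to H3.1 differed from gene to gene.

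Crabp2, which carries retinoic acid to its nuclear receptor, was the gene with the widest gap below the range in both states. It was at 1.32 FPKM in growing H3.1 cells, and the other lines had 11.7 (lowest), 18.5 (median) and 32.9 (highest). After differentiation it was at 3.18, and the others had 18.4, 28.8 and 62.5. H3.1 lay below every line in both states, with a difference of -3.07 in growth (SE 0.42, adjusted p = 0.0339) and -3.04 on the mean of both states (SE 0.29, adjusted p = 0.00230). In differentiated cells alone the difference was -3.02 (SE 0.56) and missed the threshold (adjusted p = 0.310). WT cells had 49.8 and 77.5 FPKM. With WT added to the other lines, the difference on the mean of both states was -3.19 and did not pass (adjusted p = 0.0805, limma).

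Sgcd, delta-sarcoglycan of the dystrophin complex, also lay below in both states, at 1.22 FPKM in growth (3.94, 5.87 and 8.69) and 2.24 after differentiation (6.43, 8.82 and 13.3). Musk, the kinase that organises the neuromuscular synapse, was at 0.0222 in growth (0.525, 2.08 and 5.12) and 1.64 after differentiation (3.85, 6.37 and 19.2). Fabp3, the fatty acid carrier of heart and muscle, was at 1.64 (5.31, 11.9 and 21.4) and 13.1 (26.3, 38.4 and 80.5). In WT cells Fabp3 was at 0.439 and 2.44 FPKM, below the H3.1 line.

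The troponins and myosin light chains of the sarcomere showed the same order with wide spread among the other lines. Tnnc1, the slow troponin C, was at 6.32 FPKM in growth (10.9, 13.8 and 30.9) and 858 after differentiation (1384, 2479 and 5935). Tnnc2, the fast troponin C, was at 0.570 (0.968, 3.09 and 8.33) and 310.3 (461, 1015 and 2648). Myl1, an essential light chain, was at 0.274 (1.95, 7.46 and 46.3) and 363 (384, 1026 and 3049), and Mylpf, the fast regulatory light chain, at 1.99 (3.56, 11.1 and 34.7) and 1629 (1757, 3473 and 6711). The lowest of the other lines was close to H3.1 after differentiation for Myl1 and Mylpf.

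The other genes with the widest gaps below the range in both states had other roles. Adamts5, a protease that cuts aggrecan and versican, was at 1.09 FPKM (3.81, 7.25 and 8.44) and 12.7 (23.4, 28.9 and 39.1), with an adjusted p of 0.0823 on the mean of both states. Ppef1, a protein phosphatase with EF-hands, was at 0.384 (2.21, 4.95 and 8.73) and 0.490 (3.55, 6.86 and 45.2). Mgst1, a microsomal glutathione transferase, was at 1.35 (2.90, 13.04 and 23.4) and 5.11 (9.03, 18.3 and 52.2). Cgref1, Morc4 and Lypd6 were low genes, with 0.153 to 0.683 FPKM in growing and 0.441 to 1.23 in differentiated H3.1 cells, below the other lines in both states.

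**Figure D3:**
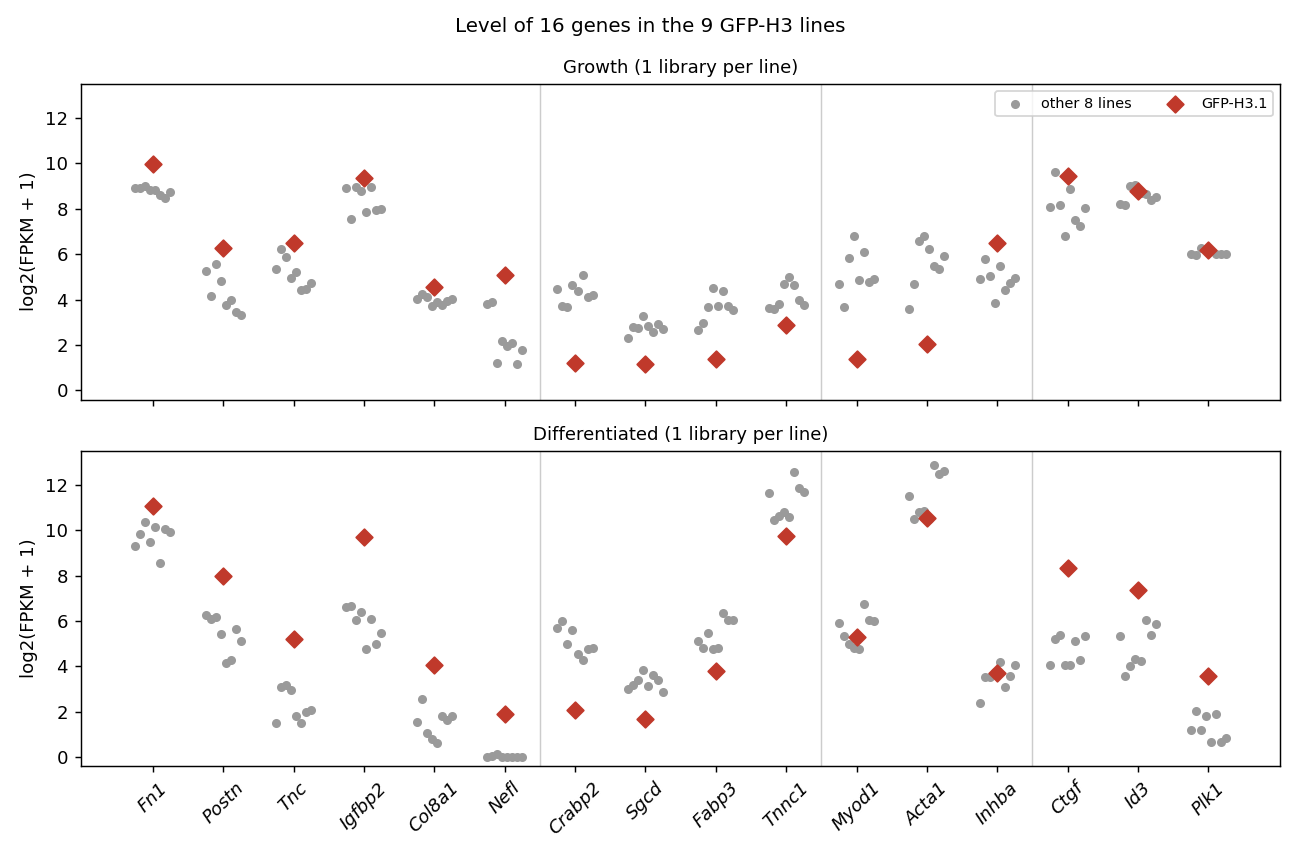
log2(FPKM + 1) of 16 genes in the 9 GFP-H3 lines, growth above and differentiated cells below, with the H3.1 line as a red diamond and the other 8 lines as grey points. From left to right the blocks hold genes above in both states, below in both states, outside in growth only and above in differentiated cells only. Inhba is the gene of the third block that lies above in growth.

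In growing cells Myod1 and Myog of the H3.1 line lay below the other lines. Myod1, the master regulator of the myoblast, was at 1.61 FPKM, and the other lines had 11.7 (lowest, H3t), 28.7 (median) and 110.1 (highest, H3mm7). The spread among the other lines was wide, and the difference of -3.82 (SE 0.92) did not pass (adjusted p = 0.465). After differentiation Myod1 was at 38.1, inside the range of 25.9 to 107. Myog, myogenin, a target of Myod1, was at 0.106 FPKM in growth (1.19, 8.66 and 23.1) and at 333 after differentiation (329, 585 and 1151), which is just inside the range. Myf5, the other myoblast determination factor, was inside the range in both states, at 38.4 (25.3, 41.1 and 64.9) and 38.6 (19.9, 51.9 and 95.9). Of 14 myogenic regulators tested, 4 lay below in growth (28.6%, against 11.4% of all genes) and none above, and 10 were inside the range. The 4 were Myod1, Myog and the fusion genes Tmem8c (myomaker) and Gm7325 (myomixer).

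Sarcomere genes gave the largest share below the range in growth. Of 34 tested, 21 lay below (61.8%, against 11.4% of all genes) and 0 above, and 32 were below the median of the other lines, with a median difference of -0.31. Acta1, skeletal muscle actin, was at 3.18 FPKM in growth (10.96, 52.1 and 111) and at 1463 after differentiation (1432, 2389 and 7352). Tnni2, fast troponin I, was at 0.0856 (0.756, 2.55 and 7.32) and Actn3, an actinin of the Z-disc, at 1.15 (2.12, 4.71 and 16.8). After differentiation 9 sarcomere genes lay below (26.5%, against 13.2%), 7 of them in both states (20.6% of the list, against 3.7% of all genes). The list's median difference after differentiation was -0.76. Its mean log2(FPKM + 1) was then 5.95, inside the 5.83 to 8.23 of the other lines, while in growth it was 1.41, below their 1.67 to 2.82. In growth H3t at 1.67 and H3.2 at 1.71 came next, and the H3.3-type lines had 2.04 to 2.82. Growing WT cells were at 1.78. No sarcomere gene passed limma in either state.

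A feature that the rule did not use was sequence near the start of these genes. RefSeq promoters (GRCm38.p6, 250 bases before to 50 bases after the start) were searched for CAGCTG, a form of the E-box that Myod1 and Myog bind, which reads the same on both strands. It occurred in 12 of 26 sarcomere genes with a promoter in the table (46.2%) and in 4353 of 27025 promoters of all genes (16.1%). This share describes the list as a whole and would be the same whatever the H3.1 values were. The windows of 3 sarcomere genes below the range in growth, those with the widest gaps that hold the motif with room for its flanks, are shown with it in capitals.
Acta1: gggaggggcagaCAGCTGgggatactctcc
Myl1: aggtacgtctgtCAGCTGtcaccaaaccaa
Mylpf: cttcctgggctcCAGCTGctgcaggcctcc
The Acta1 window is at chr8:123894979-123895008 (minus strand), and its motif begins 221 bases before the start. The Myl1 window is at chr1:66945263-66945292 (minus strand), with the motif 224 bases before the start. The Mylpf window is at chr7:127211545-127211574 (plus strand), with the motif 51 bases before the start. A match is a description of the letters, and binding was not measured in these libraries.

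Myl9, Igfbp5, Cnn1, Tlx2, Stmn2 and Ccnb1ip1 also lay below in growth only. Myl9, a regulatory light chain of smooth muscle and non-muscle myosin, was at 5.84 FPKM (25.3, 76.0 and 130.4) and at 57.1 after differentiation (52.3, 105 and 353). Igfbp5, the IGF-binding protein that accompanies myogenic differentiation, was at 2.59 (5.15, 53.8 and 177) and at 335 after differentiation (104, 351 and 682). Cnn1, calponin of smooth muscle, was at 0.896 (2.50, 12.496 and 21.2). Each of them was inside the range after differentiation. Tlx2, a homeobox gene, was at 4.87 FPKM in growth (18.5, 22.6 and 29.9), and the difference of -2.04 (SE 0.20) passed the test (adjusted p = 0.00178). After differentiation Tlx2 was at 5.23 (4.63, 7.59 and 12.6). Stmn2, a stathmin, was at 19.1 in growth (55.7, 128 and 176), and Ccnb1ip1, a ubiquitin ligase, at 0.395 (2.62, 3.87 and 11.99). With WT added to the other lines, Tlx2 missed the threshold (adjusted p = 0.0504).

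The 6 genes with the widest gaps above in growth only were Smoc2, Pdk1, Bnip3, Sema4f, Inhba and Gpr56. Inhba, the subunit of activin A, was at 89.5 FPKM in growing H3.1 cells (13.3, 29.3 and 54.6) and at 12.2 after differentiation (4.25, 10.8 and 17.3). Smoc2, a secreted calcium-binding protein of the matrix, was at 20.6 (2.22, 4.34 and 10.7) and 1.22 (0.0681, 0.428 and 1.35). Pdk1, which restrains pyruvate dehydrogenase, was at 8.24 (2.29, 3.31 and 4.17), and Bnip3, a mitophagy receptor, at 29.1 (12.3, 13.7 and 17.1). Both were inside the range after differentiation. Gpr56, an adhesion receptor, was at 57.9 (26.7, 30.8 and 35.7), and Sema4f, a semaphorin, at 8.15 (0.296, 2.26 and 4.56). Col1a1, the alpha-1 chain of type I collagen, was at 104 (1.95, 4.53 and 70.4), and only the H3.2 line was near it. After differentiation it was at 42.5 in H3.1 and at 51.0 in H3.2, with a median of 2.97.

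Among 3 metabolic lists the median differences in growth lay between -0.38 and 0.22. All 21 genes of the Nrf2 and glutathione list were below the median of the other lines in growth, 9 of them below the range (42.9%, against 11.4% of all genes), with a median difference of -0.38. Gclc and Gclm, the subunits of glutamate-cysteine ligase, and Gsr, glutathione reductase, lay below in both states by gaps of at most 0.15. The list's mean in H3.1 was 4.96, inside the 4.92 to 5.84 of the other lines. H3t at 4.92 and H3.2 at 4.98 were close to it, and the next line, H3.3, was at 5.40. Of 25 respiratory chain subunits, 9 lay below in growth (36%, against 11.4%) and 3 after differentiation (12%, against 13.2%), with a median of -0.28 and -0.24. Of 21 cholesterol synthesis genes, 6 lay above in growth (28.6%, against 13.1%) and 2 after differentiation (9.52%, against 16.7%), with a median of 0.22 and 0.03.

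After differentiation the cell division genes of the H3.1 line stood above all other GFP-H3 lines. Of 32 mitosis genes tested, 32 lay above the range in differentiated cells (100%, against 16.7% of all genes), and their median difference was 1.81. In growth 3 lay above (9.38%, against 13.1%) and 0 below (against 11.4%), with a median of 0.02. The mean log2(FPKM + 1) of the list was 5.80 in growing H3.1 cells (other lines 5.69 to 6.05) and 3.44 in differentiated H3.1 cells (0.89 to 2.46). The list was thus lower after differentiation in every line, and least so in H3.1. None of the 32 genes passed limma.

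Plk1, a kinase of mitotic entry and spindle assembly, was at 71.5 FPKM in growing H3.1 cells (61.4, 63.4 and 76.2) and at 11.01 in differentiated cells (0.598, 1.30 and 3.13). Its difference in differentiated cells was 2.29 (SE 0.52), with an adjusted p of 0.399. Ccnb2, a B-type cyclin, was at 13.2 after differentiation (0.388, 2.80 and 4.76), and Cdk1, its kinase partner, at 18.3 (1.67, 3.57 and 11.2). Birc5, survivin of the chromosomal passenger complex, was at 31.03 (0.768, 4.22 and 12.1), and Top2a, topoisomerase II alpha, at 20.8 (0.642, 3.37 and 11.2). The next line was H3t for Plk1, Ccnb2, Cdk1 and Top2a. The member closest to another line was Mad2l1, of the spindle checkpoint, at 11.1 FPKM and H3t was next at 10.8. Mki67, the proliferation marker, which is not on the list and was chosen after its values were seen, was at 8.09 (0.184, 1.16 and 2.87).

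In the same promoter table the letters TTTGAA, the cell cycle genes homology region at which late cell cycle genes are repressed and activated, were searched on both strands (TTCAAA on the other). They occurred in 18 of 26 mitosis genes with a promoter (69.2%) and in 4893 of 27025 promoters (18.1%), while of 28 DNA replication genes 3 held them (10.7%) and of 26 sarcomere genes 3 (11.5%). These shares too describe whole lists and do not depend on the H3.1 values. The windows of 3 of the mitosis genes with the widest gaps that hold the motif with room for its flanks are shown with it in capitals.
Plk1: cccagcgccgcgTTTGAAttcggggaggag
Ccnb2: cagggactagaaTTTGAAaataagactgta
Cenpa: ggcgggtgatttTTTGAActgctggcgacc
They are at chr7:122159453-122159482 (plus strand) for Plk1, chr9:70421704-70421733 (minus) for Ccnb2 and chr5:30666890-30666919 (plus) for Cenpa. The motif begins 167 bases before the start in Ccnb2, and 30 and 16 bases after it in Plk1 and Cenpa. Cenpa, the centromeric H3 variant, was at 14.6 FPKM in differentiated H3.1 cells (0.590, 2.60 and 5.75), and Cdca8, borealin of the passenger complex, at 10.6 (1.06, 2.33 and 4.15).

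DNA replication genes showed the same order with smaller differences. Of 33 tested, 20 lay above the range in differentiated cells (60.6%, against 16.7% of all genes) and 0 below, with a median difference of 0.94, and 5 lay above and 1 below in growth (15.2% and 3.03%, against 13.1% and 11.4%), with a median of 0.06. Tk1, thymidine kinase, was at 21.7 FPKM after differentiation (0.818, 3.92 and 9.03). Uhrf1, which brings the maintenance DNA methylase to replicated DNA, was at 11.8 (1.23, 2.11 and 6.94), Pole, a catalytic subunit of the leading strand polymerase, at 2.06 (0.163, 0.366 and 1.01), and Lig1, the ligase of Okazaki fragments, at 8.12 (2.19, 2.89 and 4.86). Pcna, the sliding clamp, was inside the range, at 108 (77.3, 93.5 and 122). Among 17 H3 chaperone genes, 5 lay above in differentiated cells (29.4%, against 16.7% of all genes), among them Chaf1a and Chaf1b of CAF-1, and 3 below (17.6%, against 13.2%). Chaf1a was at 5.39 FPKM (1.31, 2.53 and 3.74). In growth none of the chaperone genes lay above and 1, Supt16, lay below.

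Genes that hold cells in or out of the cycle were less uniform. Cdkn1a, the p21 inhibitor that Myod1 can induce, was at 398 FPKM in differentiated H3.1 cells, below the other lines (445, 635 and 1180.1), and at 70.3 in growth (41.7, 78.2 and 85.3). Ccnd1, cyclin D1, was inside the range after differentiation, at 24.3 (9.57, 11.1 and 29.0). Id3, an inhibitor of the E-box proteins that pair with Myod1, was at 162 (10.98, 28.9 and 65.7). Id1, Id2 and Id3 all lay above the range in differentiated cells and inside it in growth.

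**Figure D4:**
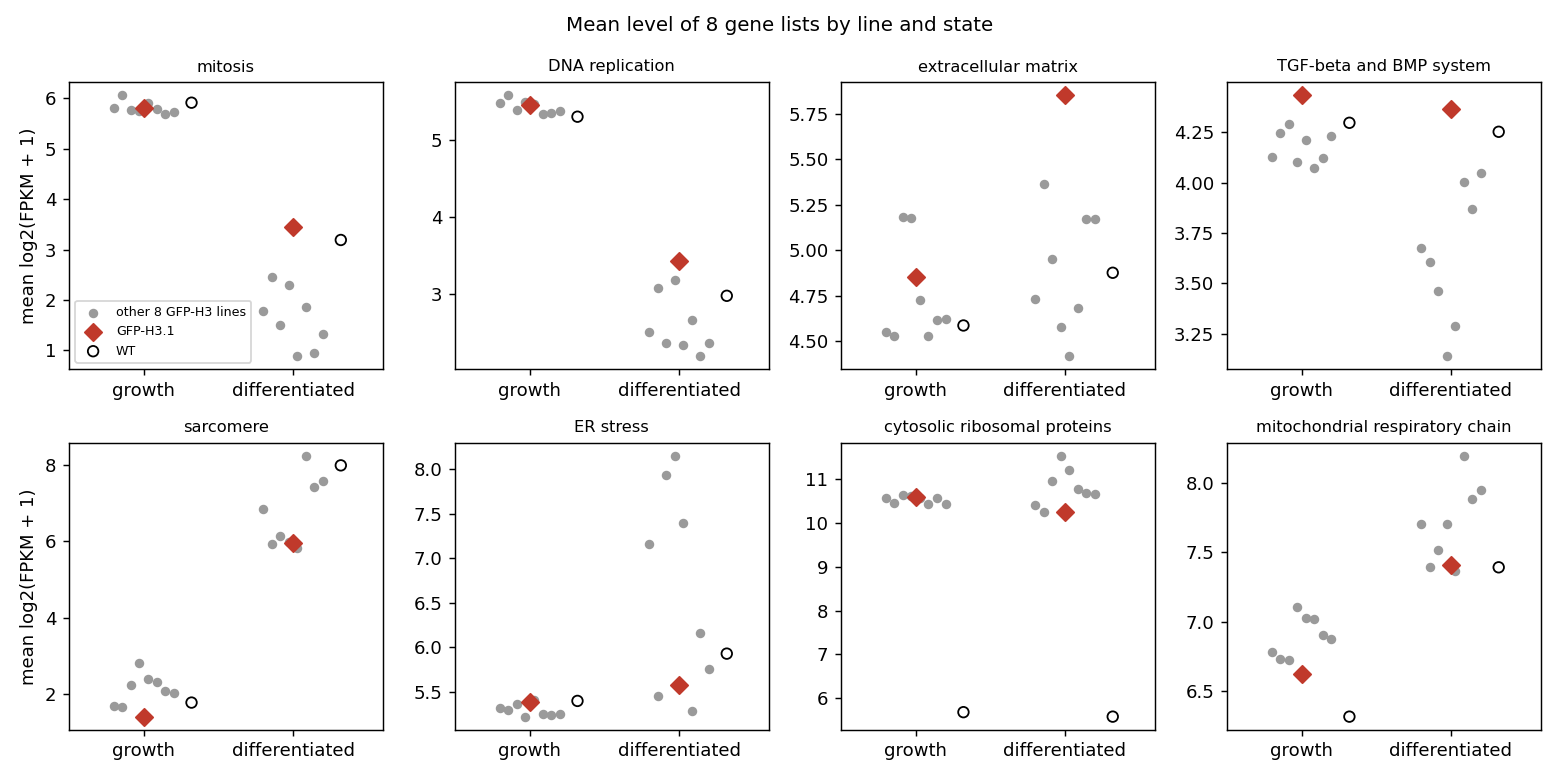
Mean log2(FPKM + 1) over the tested genes of 8 lists in each state, with the H3.1 line as a red diamond, the other 8 GFP-H3 lines as grey points and WT as an open circle. Mitosis, DNA replication and extracellular matrix lie above the grey points in differentiated H3.1 cells, the TGF-beta and BMP system in both states, and sarcomere and respiratory chain genes lie below them in growing H3.1 cells. WT lies far below all GFP-H3 lines for cytosolic ribosomal proteins.

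Ctgf, a CCN protein that TGF-beta induces, was at 318 FPKM in differentiated H3.1 cells, and the other lines had 15.5 (lowest), 26.3 (median) and 41.1 (highest). In growth it was at 686, inside the range (109, 264 and 773). The difference after differentiation was 3.62 (SE 0.58), with an adjusted p of 0.247. Thbs1, thrombospondin-1, was at 924 (67.8, 202 and 420.2). Of 21 genes of the TGF-beta and BMP system, 7 lay above in differentiated cells (33.3%, against 16.7% of all genes) and 1, Tgfbr1, below, with a median difference of 0.86. In growth 4 lay above (19%, against 13.1%), with a median of 0.11. Tgfb2, a ligand, was at 12.3 FPKM after differentiation (4.13, 5.23 and 7.92), and Fstl1, a secreted follistatin-like protein, at 466 (34.2, 109.9 and 269).

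Tmc3, a transmembrane channel-like gene, was at 23.7 FPKM in differentiated H3.1 cells and at 0.0104, 0.535 and 1.89 in the other lines, and in growth every GFP-H3 line was below 0.1. Tmc3 and Fam107a passed the filter only through the H3.1 line, with a mean of 0.396 and 0.796 FPKM over the other 16 libraries, so a high H3.1 value was a condition of their being tested. Tubb3, the class III beta-tubulin, was at 116 after differentiation (4.52, 18.2 and 38.1) and at 109.6 in growth (67.8, 107 and 128). Fibin, a secreted protein, was at 30.7 (0.907, 5.07 and 11.01), and Fam107a at 9.84 (0.104, 1.73 and 2.23). Tubb3 was thus lower after differentiation in the other lines and about level in H3.1, whereas Tmc3, Fibin and Fam107a were at 1.25 FPKM or lower in every growing line. Col12a1, a fibril-associated collagen, was at 106 (6.11, 19.7 and 70.1), Plat, tissue plasminogen activator, at 72.5 (4.00, 19.8 and 46.1), and Notch2 at 36.4 (11.2, 19.3 and 23.1).

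Ankrd2, a stretch-responsive ankyrin repeat protein of muscle, lay below in differentiated cells only, at 7.83 FPKM (16.2, 26.2 and 53.4). Rpph1, the RNA of RNase P, was at 0.688 (2.15, 9.96 and 22.4), and Snhg8, a host gene of a small nucleolar RNA, at 16.5 (31.3, 37.6 and 91.8). Rabggtb, a prenyl transferase subunit, was at 47.0 (88.7, 125 and 179.9). Htatip2 was at 0.130 (1.72, 5.94 and 10.6) and Slpi, a secreted protease inhibitor, at 0.285 (1.42, 5.02 and 29.1). For Htatip2 and Slpi the H3.1 line was also near the low end of the range in growth.

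Of 32 cytosolic ribosomal protein genes, 13 lay below the range in differentiated cells (40.6%, against 13.2% of all genes) and 0 above, with a median difference of -0.43. In growth 3 lay above and 3 below (9.38% each, against 13.1% and 11.4%), with a median of 0.07. Rps14 was below in both states, at 1685 FPKM in growth (2003, 2513 and 3090.3) and 1530.2 after differentiation (2188, 3802 and 5148). The list's mean after differentiation was 10.3, at the low end of the 10.2 to 11.5 of the other lines. Of 31 ER stress genes all were below the median of the other lines after differentiation, with a median difference of -0.86, but only 3 were below the range (9.68%, against 13.2%), Atf4, Canx and Derl1. The list's mean in differentiated H3.1 cells was 5.58, inside the 5.28 to 8.15 of the other lines. H3mm12, H3t, H3mm16 and H3mm13 were at 5.28, 5.45, 5.75 and 6.15, and H3.2, H3mm11, H3.3 and H3mm7 at 7.16 to 8.15. Hspa5, the main ER chaperone, was at 331 (205, 1132 and 3688), a state in which the other lines themselves differed widely. Canx, calnexin, was at 121 (176, 205 and 343).

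Few genes were outside on opposite sides. Apart from Racgap1, which was at 28.9 FPKM after differentiation (5.30, 10.4 and 15.3), the widest were Ska1, Hyi, Rad54b and Eda2r. Ska1, of the kinetochore, was at 6.02 in growth (9.78, 11.005 and 14.4) and 1.27 after differentiation (0.0942, 0.219 and 0.738). Rad54b, of homologous recombination, was at 2.80 (3.50, 4.35 and 4.81) and 1.31 (0.256, 0.438 and 1.06), and Hyi at 3.38 (4.03, 6.04 and 8.22) and 10.8 (5.47, 6.95 and 9.09). Eda2r, the receptor of ectodysplasin A2, went the other way, at 6.99 (3.43, 5.07 and 6.12) and 21.6 (30.4, 44.1 and 54.1). For these 4 genes the test of the change with differentiation did not pass, with adjusted p-values of 0.854 (Ska1) and 0.962 (Hyi, Rad54b and Eda2r) by limma.

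The remaining lists are given beside the shares of 13.1% above and 11.4% below of all genes in growth, and 16.7% and 13.2% after differentiation. Of 29 excitation, energy and membrane genes of muscle, 1 lay above and 9 below in growth (3.45% and 31%), and 0 and 5 after differentiation (17.2% below). Of 11 IGF genes, 3 lay above and 4 below in growth (27.3% and 36.4%), and 3 and 1 after differentiation (27.3% and 9.09%). The mean of the IGF list in differentiated H3.1 cells was 5.02, above the 4.03 to 4.56 of the other lines. Of 13 Hox genes, 4 lay above and 3 below in growth (30.8% and 23.1%), and 4 and 2 after differentiation (30.8% and 15.4%), with Hoxc11 above and Hoxc12 below in both states.

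Of 16 imprinted genes, 2 lay above and 2 below in growth (12.5% each), and 4 and 0 after differentiation (25% above). Of 20 p53 targets, 2 and 2 were outside in growth (10% each), and 1 and 4 after differentiation (5% and 20%). Of 21 Notch and Wnt genes, 1 and 2 were outside in growth (4.76% and 9.52%), and 4 and 0 after differentiation (19% above). Of 14 inflammatory genes, 1 and 3 were outside in growth (7.14% and 21.4%), and 2 and 2 after differentiation (14.3% each). Of 15 interferon-stimulated genes, 2 and 2 were outside in growth (13.3% each), and 0 and 1 after differentiation (6.67% below). Of 6 CDK inhibitors and retinoblastoma family genes, 0 and 1 were outside in growth (16.7% below), and 1 and 1 after differentiation (16.7% each). The marker lists of other cell types were inside the range of the other lines, except fibroblast and tendon markers in growth. The adipocyte list had a mean of 2.52 in growth (2.37 to 3.36) and 2.98 after differentiation (2.98 to 3.82), and the smooth muscle list 5.37 (5.17 to 6.39) and 5.73 (4.83 to 6.53). The fibroblast and tendon list was at 5.19 in growth, below the 5.26 to 5.95 of the other lines, and at 6.25 after differentiation (5.28 to 6.47). The endothelial and blood list was at 1.68 (0.93 to 2.16) and 0.56 (0.37 to 1.34), and the osteoblast and cartilage list at 4.00 (3.95 to 4.19) and 3.76 (3.48 to 4.58). The part of other cell types in the matrix genes was not tested.

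Position in the genome was not used by the rule, and chromosome 5 stood out. Of 10279 genes with a single position in the annotation (mm9, GENCODE M1), 653 were on chromosome 5. Their median difference from the other lines was 0.25 in growth and 0.23 after differentiation, 85.9% of them were above the median of the other lines in growth, and 37.7% were above the range in growth and 30.6% after differentiation. On the other chromosomes 11.6% and 15.9% were above the range. In both states 125 chromosome 5 genes lay above and 3 below, and on the other chromosomes 458 (4.76%) lay above and 369 (3.83%) below. In growth all 8 bins of 20 Mb had a median above 0, from 0.08 to 0.34. After differentiation the medians ran from -0.08 to 0.32, and the bins from 40 to 60 Mb and from 80 to 100 Mb were below 0, at -0.05 and -0.08.

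The H3.2 line had a like shift on chromosome 5, 0.24 in growth and 0.30 after differentiation, so that it lay next to H3.1 or above it. The other 7 lines did not exceed 0.11, and WT was at 0.04 and 0.08. On chromosome 15 the H3.1 line was the lowest in growth, with a median of -0.15 over 429 genes, and H3.2 followed with -0.10. After differentiation the values were -0.12 and -0.20. Of the genes named, Fzd6, Racgap1, Atf4, Derl1, Hoxc11 and Hoxc12 lie on chromosome 15. In growth the bins from 20 to 40 Mb and 40 to 60 Mb of chromosome 15 had medians of -0.31 and -0.40 in H3.1 and -0.02 and -0.04 in H3.2. On the remaining chromosomes the H3.1 medians were between -0.09 and 0.07. DNA copy number was not analysed here, and its part in these shifts was not tested. Among genes named above, Pole, Cenpa and Cgref1 lie on chromosome 5.

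**Figure D5:**
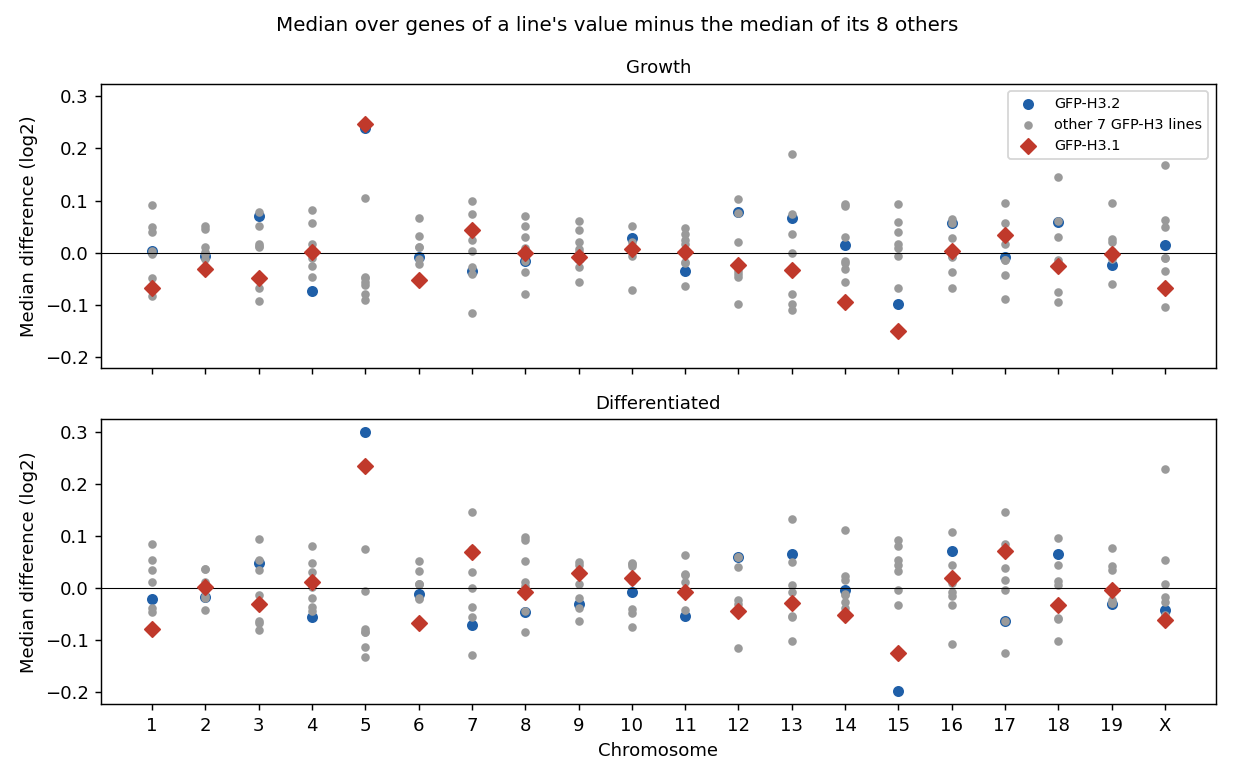
Median, over the genes of a chromosome, of a line's log2(FPKM + 1) minus the median of its 8 other lines, in growth (top) and after differentiation (bottom), for the H3.1 line (red diamonds), the H3.2 line (blue) and the other 7 GFP-H3 lines (grey). H3.1 and H3.2 are apart from the rest on chromosome 5, at 0.25 and 0.24 in growth, and among the lowest on chromosome 15.

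WT cells, which the rule did not use, give the course of these genes without a transgene, from 1 library per state. Their libraries stood apart from all GFP-H3 libraries in the ribosomal protein list, with a mean of 5.68 in growth and 5.58 after differentiation where the GFP-H3 lines had 10.2 to 11.5, and their levels are therefore given side by side only. Of the 1177 genes above in differentiated H3.1 cells only, 285 (24.2%) were lower by at least 1 after differentiation of WT cells, against 9.51% of all genes tested, and 61 (5.18%) were higher, against 10.3%. Of the 404 genes below in both states, 71 (17.6%) were higher by at least 1 after differentiation of WT cells and 12 (2.97%) were lower. Of the 611 genes above in both states, 18 (2.95%) were higher and 104 (17.0%) lower.

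For the lists, WT and H3.1 lay on the same side of the other lines in some cases and not in others. The mitosis list in differentiated WT cells had a mean of 3.19, also above the 0.89 to 2.46 of the other 8 lines, beside 3.44 in H3.1. Plk1 was at 6.71 FPKM in differentiated WT cells, and Mki67 at 4.46, both lower than in H3.1. Other genes of the mitosis list went either way. Ccna2 was at 20.08 FPKM in differentiated WT cells and 16.77 in H3.1, and Bub1b at 7.12 and 6.25. Bub1, Nek2, Prc1, Kif20a, Tpx2 and Pttg1 were also higher in WT, whereas Ccnb1, Birc5 and Ube2c were lower. The TGF-beta and BMP list of WT was also above the other 8 lines in both states, though by little in growth. It was at 4.30 in growth (highest other line 4.29, H3.1 4.43) and 4.25 after differentiation (4.05 and 4.37). The sarcomere list was at 7.99 in differentiated WT cells, beside 5.95 in H3.1. The matrix list was at 4.88, inside the range of the other lines, beside 5.85 in H3.1, and Ctgf was at 25.4 FPKM, Igfbp2 at 23.2 and Tnc at 3.21. In growing WT cells Myod1 was at 34.7 and Acta1 at 2.83 FPKM, so that low Acta1 in growth was shared by WT and H3.1 and low Myod1 was not.

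Across genes, Pearson's r of the H3.1 profile with the other lines was 0.962 to 0.981 in growth, highest with H3.2, and 0.915 to 0.961 after differentiation, highest with H3t. These are descriptions across genes, which are not independent replicates.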

How the data were processed

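mRNA-Seq was made by the authors from 9 GFP-H3 lines and WT C2C12 cells, growing and differentiated, with 1 library each. The deposited values are FPKM per gene. The submitters' processing notes name TopHat2 2.0.8 and Cufflinks 2.0.1 with Cuffdiff, and for the GFP-H3 lines the authors used the mm9 genome. The mapping of the WT libraries is not given in the sources used here. Columns named H3mmT were taken as the H3t line. 3′-seq, ChIP-seq and amplicon data were not used here. Read numbers are unknown, so precision rests on the spread among lines.

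FPKM were taken as log2(FPKM + 1) for genes with a mean of at least 1 FPKM over the 18 GFP-H3 libraries. Of these, 16 passed only through the H3.1 values. The H3.1 line was compared with the other 8 lines by range and by limma (trend and robust settings), 1 against 8, with Benjamini-Hochberg adjustment over all genes. The lone library is assumed to vary like the others. Fold changes of low genes are understated on this scale. The line counts were compared by exact permutation over lines. In the simulation that follows, values were drawn independently for each gene from a normal distribution. Changes were placed only in genes with a mean log2(FPKM + 1) of at least 3 in the other 8 lines. Its recovery does not cover lower genes, such as Nefl after differentiation. Tested on simulated data of 10931 genes with 200 changed, limma recovered 97.7% (log2 size 2) and 99.1% (size 3) with 12 false calls in the growth design, and 79.4% and 90.3% with 9 false calls in the differentiated design.

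Named genes are the 10 above and 10 below with the widest smaller gap over both states, the 6 above and 6 below with the widest gap in 1 state only, the 4 widest on opposite sides, and members of the gene lists outside by at least 0.5. Genes with a doubtful 0 (a 0 in some library where the median above 0 exceeds 20 FPKM) were not named by gap. Genes called by limma were named in addition, and marker or list genes without a gap of 0.5, such as Pcna, Ccnd1, Hspa5 and Gclc, were chosen after their values were seen. The members and lists were chosen with earlier results of these data known. Alternatives changed the pseudocount (0.1), the filter (5 FPKM or none), the normalization, the lines included and the limma settings. Chromosome positions came from GENCODE M1 (mm9) and promoter sequences from RefSeq (GRCm38.p6). The fits were run in R 4.3.3 (limma 3.58.1), the counts in pandas 2.3.3 with numpy 2.4.6 and scipy 1.17.1 under Python 3.11.15, and figures were drawn with matplotlib 3.10.9.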

Additional observations from a re-analysis of the deposited data

Results flagged for a closer look

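Fzd6 and Racgap1 were picked out because their change with differentiation in the H3.1 line differed from that of the other 8 lines by a test of the difference itself (limma, adjusted over all genes). For Fzd6 the change was 4.12 larger on the log2 scale (SE 0.27, adjusted p = 7.46e-05), and for Racgap1 it was 8.68 larger (SE 0.51, adjusted p = 4.06e-05). Both rest on a value of exactly 0 FPKM in growing H3.1 cells, where the other lines had 17.4 to 39.6 and 134 to 163 FPKM. Without genes that have such a doubtful 0, limma called 0 genes for the change with differentiation. Whether the 0 is a failed estimate was not tested.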

How the results depend on the processing

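Libraries were paired only by line, in the mean of both states and the change with differentiation. With the 18 libraries in 1 fit and the line as a random block, limma called 4 genes on the mean of both states in place of 3. The counts outside the range stayed within 1.5 times under every alternative but these: at least 0.5 outside the range gave 105 genes in growth, 400 in differentiated cells and 26 on the same side in both states, and without the H3.3 line 1541 genes were on the same side in both states. Leaving out each other line in turn gave 2717 to 3889 in growth, 3337 to 4049 in differentiated cells and 1038 to 1541 in both states. The settings without chromosome 5 and without genes with a doubtful 0 were chosen after seeing the data.

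limma called 5 genes in growth, 1 in differentiated cells, 3 on the mean of both states and 2 on the change with differentiation, and these small counts moved most. Leaving out each other line gave 4 to 9, 0 to 2, 3 to 6 and 2 to 4. With the 6 H3.3-type lines alone as the other side they were 41, 3, 13 and 6, and without a filter 8, 2, 8 and 5. A pseudocount of 0.1 gave 14, 0 and 7 in the first 3, and a mean of at least 5 FPKM gave 0 in differentiated cells. WT added gave 3 in growth. Without genes with a doubtful 0 there were 2 in growth, 1 on the mean of both states and 0 on the change. The cause of these shifts was not tested. Named genes were followed over 1808 alternative values, in 1 contrast per gene, and none reversed in direction. As they lie outside the range in that contrast, leaving out lines, the filter or the pseudocount could not reverse them. Only the normalization settings and WT added could have done so. Most of these genes were not called in the main fit and so had no call to lose. Crabp2 on the mean of both states and Tlx2 in growth lost their calls with WT added. Nefl was followed on the mean of both states, where it was not called. Its call in differentiated cells, lost in the settings that gave 0 there, is not part of these values.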
